A study of Mus musculus with 6 samples.

Results

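The genes of the proteasome, the protease complex that degrades ubiquitin-tagged proteins, were compared between the lungs of mice given bleomycin and mice given saline. All genes whose symbol on the array starts with Psma, Psmb, Psmc, Psmd, Psme, Psmf or Psmg were taken. Each was read through the brightest of its probe sets that list 1 gene symbol only. The rule holds no difference between the groups, although the gene family was taken up with earlier results of these data known. It gave 48 genes of the 12393 measured. Of these, 46 encode subunits, activators, an inhibitor or assembly chaperones of the proteasome. The other 2, Psmc3ip and Psme3ip1, share the symbol but encode proteins that are not subunits. Psme2 is listed together with Psme2b on its probe set and was not read, so the interferon-inducible group held 4 genes, Psmb8, Psmb9, Psmb10 and Psme1.

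The tissue was homogenised whole lung of male wild-type C57BL/6J mice aged 8 to 10 weeks. There were 3 mice given saline (arrays A, B and C) and 3 given bleomycin at 1 mg/kg in 50 µl (arrays D, E and F), all killed at day 14, with an Affymetrix MOE430A array for each mouse. Bleomycin is a DNA-damaging drug whose delivery to the airways is a common model of lung fibrosis. The labels name oropharyngeal delivery in one place and an intratracheal route in another.

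The barrel of the proteasome, the 20S core, is built of rings of alpha subunits, which gate the entrance, and rings of beta subunits, of which Psmb5, Psmb6 and Psmb7 encode the catalytic ones. A cap, the 19S regulator, binds ubiquitin chains, removes them and feeds the unfolded protein into the core with a ring of ATPases. In immune cells, and in other cells under interferon-gamma, the catalytic subunits are replaced by those of Psmb8, Psmb9 and Psmb10. This immunoproteasome, with the PA28 activator that Psme1 and Psme2 encode, produces peptides for MHC class I.

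The values are RMA expression levels on a log2 scale, 1 per probe set. RMA brings the arrays to a common distribution and then combines the probes that target a transcript. The median over all probe sets lay between 7.37 and 7.41 on the 6 arrays. Xist, the RNA that coats an inactive X chromosome, was at 11.40 on saline B, against 7.23 to 7.88 on the other arrays, and the Y-linked Eif2s3y was at 4.05, against 7.23 to 8.02. Both go against its label as a male mouse, so the main results that rest on this array are given with and without it. The lung label was checked on 8 alveolar epithelial genes, including Sftpc and Ager, whose mean was 11.70 to 12.17 on every array. There is no read depth for arrays, and the number of mice limits the precision.

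Most proteasome genes lay a little higher after bleomycin, and 2 passed the test. A difference here is the bleomycin mean minus the saline mean in log2 units. A gene is called where limma's p is under 0.05 after Benjamini-Hochberg adjustment over the 22626 probe sets tested. Psmd8, of the 19S lid, and Psme3, which encodes the nuclear activator PA28 gamma, rose, and 0 genes fell. That is 4.17% of the 48, against 5.60% of all genes called (3.70% higher and 1.90% lower). With 3 mice in each group, a gene that misses the threshold is not shown to be unchanged. An unadjusted p under 0.05 was reached by 17 of 48 (35.4%), each with a positive difference, against 22.7% of all genes in either direction and 11.7% with a positive one. The differences of the 48 ran from -0.15 to 0.73, with a median of 0.25, against -0.039 over all genes. The difference was positive for 42 of 48 (87.5%), against 43.0% of all genes. For 20 of 48 (41.7%) every bleomycin array lay above every saline array, against 13.3% of all genes. For 1 gene, Psma8, every bleomycin array lay below, against 14.6%. Proteasome genes are bright, and 46 of the 48 had a mean above that of the median probe set. Of these 46, 41 differences were positive (89.1%) and 20 had groups apart upwards (43.5%). Of the 7304 genes above that median, 50.6% and 17.7% were. Many of the 46 lay far above it, such as Psma2 at the percentile 97.6, so brightness was not closely matched. Without saline B the groups were apart upwards for 33 of 48 (68.8%), against 18.1% of all genes. When the values were quantile-normalised once more, 12 of 48 (25%) were, against 12.5% of all genes. The median difference of the 48 was then 0.18, against -0.031 over all genes. The genes were read on the same 6 arrays, so these counts are not 48 separate observations.

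**Figure D1:**
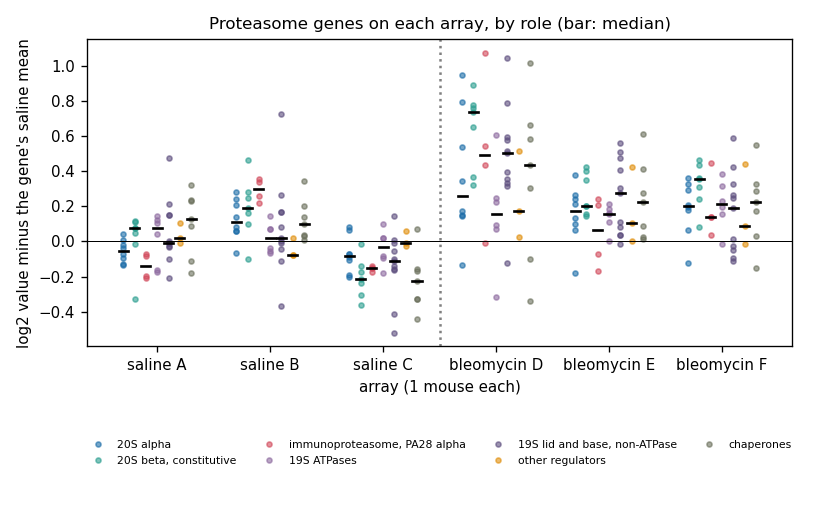
Log2 value of each proteasome gene on each array minus the mean of that gene over the 3 saline arrays (vertical axis), by array (horizontal axis) and role (colour). Points are genes and black bars are medians. Bleomycin D stands highest for most genes, and the constitutive beta subunits are the group with the highest median there.

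The alpha ring of the 20S core held 8 measured genes, and 0 passed the test. Of these, 7 had a positive difference, from 0.20 for Psma6 to 0.52 for Psma4, and the median of the 8 was 0.22. Psma4 stood at 10.26, 10.54 and 10.10 in the saline lungs and at 11.25, 10.54 and 10.66 in the bleomycin lungs. Its groups were apart only narrowly, since bleomycin E was level with saline B to 2 decimals, and D was highest. The difference was 0.52 ± 0.20 (SE, n = 3 each, limma adjusted p = 0.179). For Psma1, Psma3 and Psma5 the groups did not overlap either, with differences of 0.23, 0.21 and 0.39. Psma2 (0.28), Psma6 (0.20) and Psma7 (0.21) overlapped. Psma8, which encodes an alpha subunit of germ cells, was the exception, with a dim signal of 5.53 ± 0.088 in saline and 5.38 ± 0.031 in bleomycin lungs (SD, n = 3 each) and a difference of -0.15. Its mean lay at the percentile 17.2 of all probe sets.

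The constitutive beta ring was the role group with the highest median difference, 0.41 over 7 genes. All 7 differences were positive, from 0.22 for Psmb3 to 0.54 for Psmb5, and 0 of the 7 passed the test. Psmb5, which encodes the subunit with chymotrypsin-like activity and is the target of the drug bortezomib, stood at 10.17, 10.29 and 9.91 after saline and at 10.86, 10.55 and 10.59 after bleomycin. The lowest bleomycin lung was above the highest saline lung. The difference was 0.54 ± 0.14 (SE, n = 3 each, limma adjusted p = 0.0674). It passed with arrays weighted by their quality (0.52, limma adjusted p = 0.045). Psmb5 has 1 probe set, so reading genes as the mean of their probe sets left its values unchanged (0.54). It passed in that fit too (limma adjusted p = 0.0474), which had 12393 rows rather than 22626. With 1 array left out the adjusted p was 0.0776 to 0.178. Psmb6, of the caspase-like activity, had 10.79, 10.99 and 10.34 after saline and 11.47, 11.11 and 11.06 after bleomycin, again without overlap. Its difference was 0.51 ± 0.18 (SE, n = 3 each, limma adjusted p = 0.162). Psmb7, of the trypsin-like activity, had 10.02, 10.81 and 10.21 after saline and 11.24, 10.55 and 10.66 after bleomycin. Here saline B exceeded bleomycin E and F, and the difference was 0.47 ± 0.24 (SE, n = 3 each, limma adjusted p = 0.302). Without saline B it was 0.70 (limma adjusted p = 0.127). Among the non-catalytic beta subunits, Psmb2 (0.35) and Psmb1 (0.39) did not overlap between groups, while Psmb4 (0.41) and Psmb3 (0.22) did.

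The interferon-inducible group had a median difference of 0.23, against 0.41 for the constitutive beta subunits, and these medians were not tested against each other. None of its 4 genes passed the test, in limma the unadjusted p was under 0.05 for 1 of them, and for 0 of 4 did every bleomycin array lie above every saline array. Psmb8, which replaces Psmb5, stood at 8.98, 9.52 and 9.04 after saline and at 10.25, 9.42 and 9.63 after bleomycin. Bleomycin D was highest, and E was below saline B. The difference of 0.59 ± 0.23 (SE, n = 3 each, limma adjusted p = 0.184) had the widest interval of the group, 0.066 to 1.11. Psmb9, which replaces Psmb6, had 9.02, 9.59 and 9.08 after saline and 9.77, 9.43 and 9.37 after bleomycin, a difference of 0.30 ± 0.18 (SE, n = 3 each, limma adjusted p = 0.376). Saline B again lay above bleomycin E and F. Psmb10, which replaces Psmb7, had 9.84, 10.13 and 9.76 against 9.90, 9.74 and 9.95. Its groups overlapped throughout and the difference was -0.046, with a 95% interval of -0.34 to 0.25. Psme1, the alpha subunit of the PA28 cap, had 10.76, 11.10 and 10.67 against 11.28, 10.77 and 10.98, with a difference of 0.17 and an interval of -0.21 to 0.55.

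Saline B, the array that goes against its label, was the highest saline array for these 4 genes. It was so for 27 of all 48 proteasome genes, and for 4297 of the 12393 genes measured (34.7%). The mean of the 4 was 9.65, 10.08 and 9.64 on saline A, B and C, and 10.30, 9.84 and 9.98 on bleomycin D, E and F. Without saline B the difference was 0.75 for Psmb8, 0.48 for Psmb9, 0.065 for Psmb10 and 0.30 for Psme1, and none of them was called. The median difference of the group was then 0.39, and without bleomycin D it was 0.10. The 5 genes that followed this mean most closely over the 6 arrays were Itpa (Pearson r = 0.995), Slc31a2 (0.992), Ugcg (0.987), Aimp2 (0.986) and Sh3kbp1 (0.982). These were picked as the highest of all genes over 6 points and are given as a description. None of the 5 was called, with differences of 0.24 to 0.42.

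The exchange of catalytic subunits was examined within each array, as the log2 value of the interferon-inducible subunit minus that of the constitutive one. For Psmb8 and Psmb5 it was -0.94 ± 0.22 after saline and -0.90 ± 0.27 after bleomycin (SD, n = 3 each), a change of 0.045 (exact two-sided permutation p = 0.9). For Psmb9 and Psmb6 it was -1.48 ± 0.26 and -1.69 ± 0.014 (SD, n = 3 each), a change of -0.21 (exact two-sided permutation p = 0.4). For Psmb10 and Psmb7 it was -0.18, -0.68 and -0.45 after saline and -1.34, -0.81 and -0.71 after bleomycin. All 3 bleomycin values lay below all saline values, and the change was -0.52 (exact two-sided permutation p = 0.1). Adjusted over the 3 pairs the p-values were 0.9, 0.6 and 0.3. With 3 arrays in each group this test cannot go below 0.1, so none could pass. Without saline A or without bleomycin D the change of Psmb8 against Psmb5 was -0.078 and -0.10, respectively. Without bleomycin D that of Psmb10 against Psmb7 was -0.32.

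**Figure D2:**
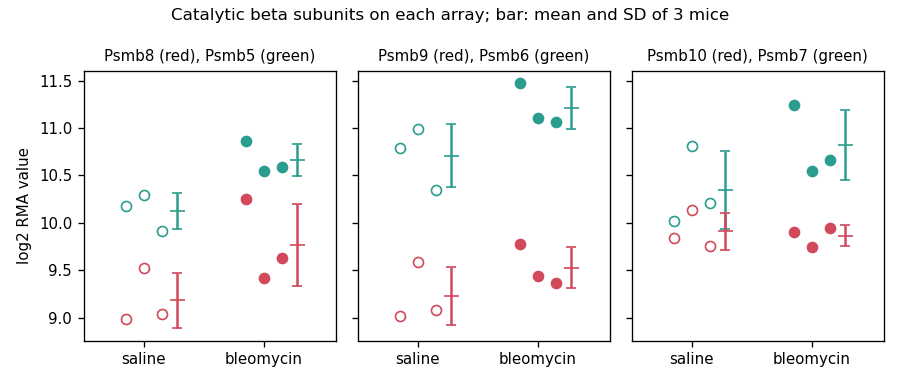
Log2 RMA value (vertical axis) of the 3 interferon-inducible catalytic subunits (red) and of the constitutive subunits they replace (green) in saline (open points) and bleomycin lungs (filled points), with the mean and SD of 3 mice. Red minus green, which was negative on every array, changed by 0.045, -0.21 and -0.52 from saline to bleomycin in the 3 panels. Levels of different probe sets are not comparable.

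The ATPase ring of the 19S cap had a median difference of 0.15 over 6 genes, and 0 were called. Psmc4 (0.36) and Psmc6 (0.28) had every bleomycin array above every saline array. Psmc4 stood at 8.99, 8.95 and 8.70 after saline and at 9.49, 9.03 and 9.19 after bleomycin (0.36 ± 0.15, SE, n = 3 each, limma adjusted p = 0.199). The groups were apart by 0.048. Psmc3 (0.16), Psmc5 (0.14) and Psmc2 (0.080) overlapped. Psmc1 had 9.33 ± 0.11 and 9.31 ± 0.26 (SD, n = 3 each), a difference of -0.015 with an interval of -0.35 to 0.32.

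Of 11 non-ATPase subunits of the 19S cap, 1 rose, 0 fell, and the median difference was 0.34. Psmd8, a subunit of the lid that is needed for its assembly, rose 1.66-fold and had the largest difference of all 48 genes. Its only probe set read 9.99, 10.16 and 9.84 in the saline lungs and 11.04, 10.56 and 10.59 in the bleomycin lungs. Every bleomycin lung was at least 0.395 above the highest saline lung, and D was the highest. The difference was 0.73 ± 0.16 (SE, n = 3 each, limma adjusted p = 0.0377). The call held without bleomycin E (adjusted p = 0.0465). It was lost without saline A (0.104), B (0.0552) or C (0.113), and likewise without bleomycin D (0.0703) or F (0.0796). The difference stayed between 0.58 and 0.82 in these 6 fits, each of which has fewer arrays.

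Psmd14, the deubiquitinase of the lid, was at 10.68, 10.68 and 10.67 after saline and at 11.46, 11.18 and 10.92 after bleomycin. The saline lungs lay within 0.010 of each other and all bleomycin lungs lay above them, while the spread among bleomycin lungs was 0.27 (SD, n = 3). The difference was 0.51 ± 0.14 (SE, n = 3 each, limma adjusted p = 0.0823). Psmd6 (0.39), Psmd13 (0.36) and Psmd12 (0.34), also of the lid, had groups that did not overlap. The scaffold subunits of the base, Psmd2 (0.38) and Psmd1 (0.19), overlapped. So did the ubiquitin receptor Psmd4 (0.19) and the lid subunits Psmd11 (0.12), Psmd7 (0.11) and Psmd3 (-0.036). Psmd7, the partner of Psmd14, had the widest spread, with saline values of 7.11, 8.04 and 6.80, and its interval ran from -0.56 to 0.77.

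Among the other regulators, Psme3 rose 1.38-fold by 1 of its 3 probe sets. PA28 gamma, its product, is a nuclear cap that opens the 20S core without ATP or ubiquitin. The brightest probe set read 8.32, 8.13 and 8.19 after saline and 8.73, 8.64 and 8.66 after bleomycin. The groups were apart by 0.32, and the bleomycin lungs lay within 0.092 of each other. The difference was 0.46 ± 0.10 (SE, n = 3 each, limma adjusted p = 0.0439). The 2 dimmer probe sets of the gene differed by 0.24 and -0.064, and the mean of the 3 by 0.21 (limma adjusted p = 0.291). The call was lost in all 6 fits with 1 array left out (limma adjusted p = 0.0678 to 0.129), with a trended robust variance prior (0.0673) and with arrays centred on ribosomal protein genes (0.139). Psme4, the large nuclear activator PA200, had a difference of 0.12 without overlap between groups, and limma's adjusted p was 0.529. Psmf1, which encodes the inhibitor PI31, was at 8.61 ± 0.018 after saline and 8.61 ± 0.020 after bleomycin (SD, n = 3 each), a difference of 0.0036 with an interval of -0.21 to 0.22.

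Assembly chaperones had a median difference of 0.35 over 7 genes, with 0 called. Psmd10, also known as gankyrin, which escorts the ATPases, stood at 7.65, 7.62 and 6.97 after saline and at 8.08, 8.02 and 7.96 after bleomycin. The bleomycin lungs were close together and saline C was low. The difference was 0.61 ± 0.18 (SE, n = 3 each, limma adjusted p = 0.0967). It passed with arrays weighted by quality (0.67, limma adjusted p = 0.0496). It was 0.39 without saline C, and with 1 array left out limma's adjusted p was 0.103 to 0.213. Psmg1, which guides the alpha ring, had 8.58, 8.63 and 8.27 against 9.51, 8.91 and 8.72, a difference of 0.55 ± 0.20 (SE, n = 3 each, limma adjusted p = 0.167). Its partner Psmg2 differed by -0.093, and the other pair of alpha ring chaperones, Psmg4 and Psmg3, by 0.37 and 0.19. The chaperones of the base, Psmd5 and Psmd9, differed by 0.35 and -0.079. Of the 2 genes that share the symbol only, Psmc3ip, of meiotic recombination, differed by 0.13, and Psme3ip1, which binds PA28 gamma, by 0.082. Neither was called.

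**Figure D3:**
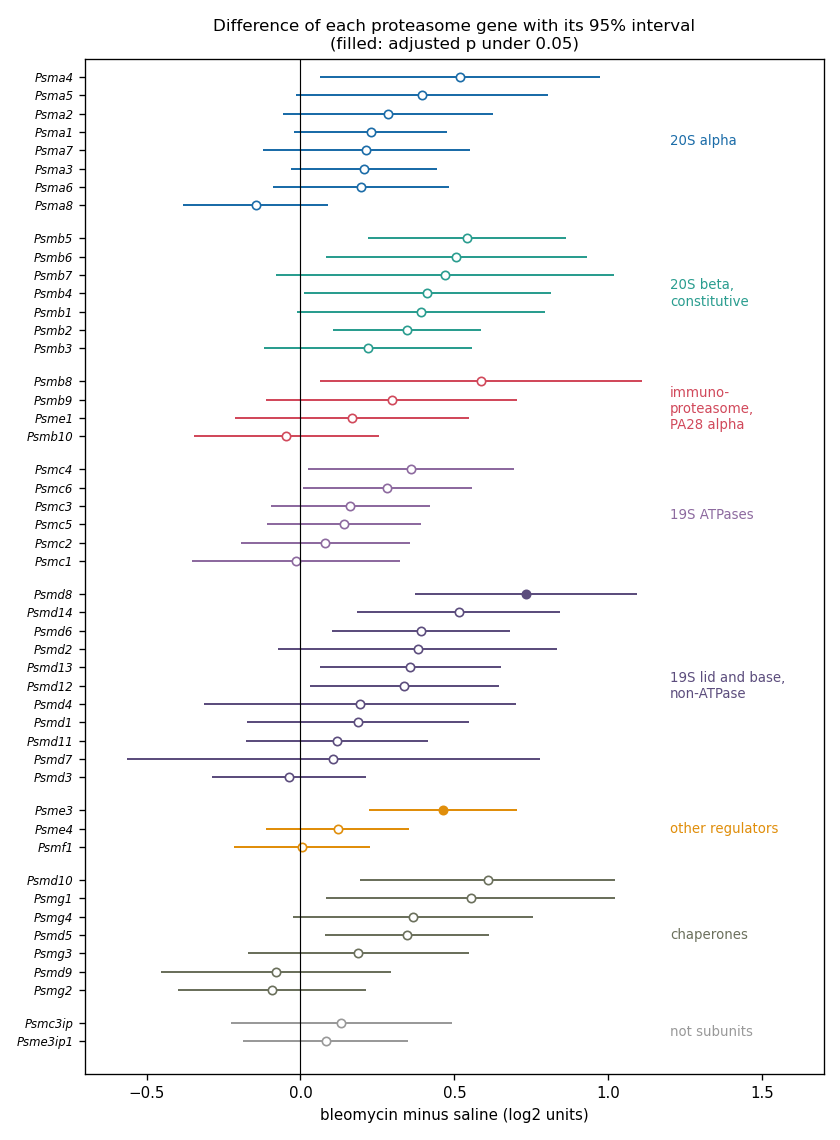
Bleomycin minus saline in log2 units (horizontal axis) for the 48 genes in rows, grouped by role, with 95% intervals from the limma fit. Filled points, Psmd8 and Psme3, have an adjusted p under 0.05.

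The order of the 6 lungs was compared between the genes. Bleomycin D was the highest of the 6 arrays for 31 of the 48 genes, and saline C the lowest for 25. The shares of all genes for these counts were not computed. Among the bleomycin arrays D was the highest for 32 of 48, and among all 12393 genes it was so for 41.0%. The mean over the 48 genes was 9.55, 9.64 and 9.40 on saline A, B and C and 9.94, 9.72 and 9.73 on bleomycin D, E and F. It did not overlap between groups, and the smallest gap, 9.64 on saline B against 9.72 on bleomycin E, was less than the spread within a group (SD 0.12 for each, n = 3). Without bleomycin D the median difference of the 48 genes was 0.20, with 41 positive, and without saline C it was 0.25, with 39 positive. Limma called 0 of the 48 in either fit.

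Several genes gave unlike readings on different probe sets. Of the 48 genes, 21 had more than 1 probe set, and for 5 of them the differences spanned over 0.5 units: Psma5, Psmb1, Psmd4, Psmd11 and Psme3. For Psmb1 the brightest probe set differed by 0.39 and the others by -0.24 and 0.088. For Psma5 the 2 brighter probe sets differed by 0.39 and 0.35, and a dim one by -0.14. The 6 probe sets of Psmd11 ran from -0.14 to 0.39, and the 3 of Psmd4 from -0.13 to 0.37. With each gene read as the mean of its probe sets, 39 of 48 differences were positive. Groups were apart upwards for 16 of 48 (33.3%), against 13.8% of all genes. Those called were Psmb5 and Psmd8, with 6.63% of all genes called. Each of these has 1 probe set, so its values were not changed by averaging.

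The genes around the proteasome were described by 3 lists. Of 21 genes of ubiquitin supply, proteasome-bound enzymes and shuttles, 0 rose and 0 fell, with a median of 0.023 and 12 positive. The largest difference was that of Zfand2a, a stress-induced partner of the 19S cap, at 10.03, 9.73 and 9.43 against 10.43, 10.22 and 10.20 (0.55 ± 0.16, SE, n = 3 each, limma adjusted p = 0.0902). Pomp, the maturation factor of the core, differed by 0.17, Usp14 and Uchl5, the deubiquitinases of the cap, by 0.023 and 0.18, and the unfoldase Vcp by 0.36. The transcription factor Nfe2l1, known to drive proteasome genes when the complex is inhibited, differed by -0.029 and its relative Nfe2l2 by 0.21. None of these was called.

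Of 11 genes of MHC class I loading, 0 rose and 0 fell, with a median of 0.23 and 10 positive. Tap1 and Tap2, the peptide transporters encoded beside Psmb9 and Psmb8, differed by 0.17 and 0.24, and B2m by 0.23. The largest difference was that of the chaperone Pdia3, 0.79 ± 0.35 (SE, n = 3 each, limma adjusted p = 0.234). Of 20 genes of the interferon-gamma pathway, 1 rose and 0 fell, with a median of 0.12 and 14 positive. The gene that rose was the chemokine Cxcl10, at 6.86, 7.06 and 7.38 against 8.34, 7.57 and 8.14 (0.92 ± 0.21, SE, n = 3 each, limma adjusted p = 0.0478). Its adjusted p was 0.0627 to 0.143 in 5 of the 6 fits with 1 array left out, and 0.016 without bleomycin E. Ifng itself differed by -0.077 at a dim signal. The transcription factors Irf8 and Irf1 differed by 0.54 and -0.28, the chemokine Cxcl9 by 0.83 and the GTPase Gbp2 by -0.40, and none of them was called.

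Markers of leukocytes and of dividing cells moved with the treatment in the same libraries. Of 8 markers of all leukocytes 6 rose and 0 fell, and their mean was 9.44 to 9.98 after saline and 10.49 to 10.69 after bleomycin. Of 11 macrophage markers 9 rose and 0 fell, with a mean of 8.94 to 9.34 and 11.13 to 11.30. Of 12 markers of dividing cells 7 rose and 0 fell, with a mean of 6.93 to 7.26 and 8.01 to 8.55. Bleomycin D was the highest for the means of leukocytes, macrophages and dividing cells alike. Among bleomycin lungs F was the highest for fibroblasts (11.09 against 10.99 on D) and B and plasma cells (9.88 against 9.23 on D). It was also the highest for T and natural killer cells and endothelial cells, and E for alveolar epithelial cells. D was the highest bleomycin array for 32 of the 48 proteasome genes, against 41.0% of all genes. Of 11 T and natural killer cell markers 0 rose and 0 fell, with a mean of 7.18 to 7.89 and 7.28 to 7.65, and saline B was the highest. Among saline lungs it was also the highest for the means of all leukocytes, of dividing cells and of B and plasma cells. Saline C was the highest of them for macrophages (9.34 against 9.27 on B) and fibroblasts (10.28 against 9.85 on B). Saline A was the highest for alveolar epithelial and endothelial cells. Saline B was the highest saline array for 27 of the 48 proteasome genes, the interferon-inducible ones included, and for 34.7% of all genes. Of 5 B and plasma cell markers 1 rose, the antibody joining chain Jchain, with a mean of 8.75 to 9.44 and 9.23 to 9.88. Of 7 fibroblast markers 4 rose, of 6 endothelial markers 1 fell (Kdr), and of 8 alveolar epithelial markers 1 fell (Hopx). Their part in the proteasome differences was not tested. In a homogenate, more cells of a type and more RNA per cell cannot be told apart. Genes whose symbols start with Rpl or Rps and a digit were taken as ribosomal protein genes, without a check of each. Their median difference was 0.015 over 50 genes (-0.69 to 0.63), with 1 called.

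**Figure D4:**
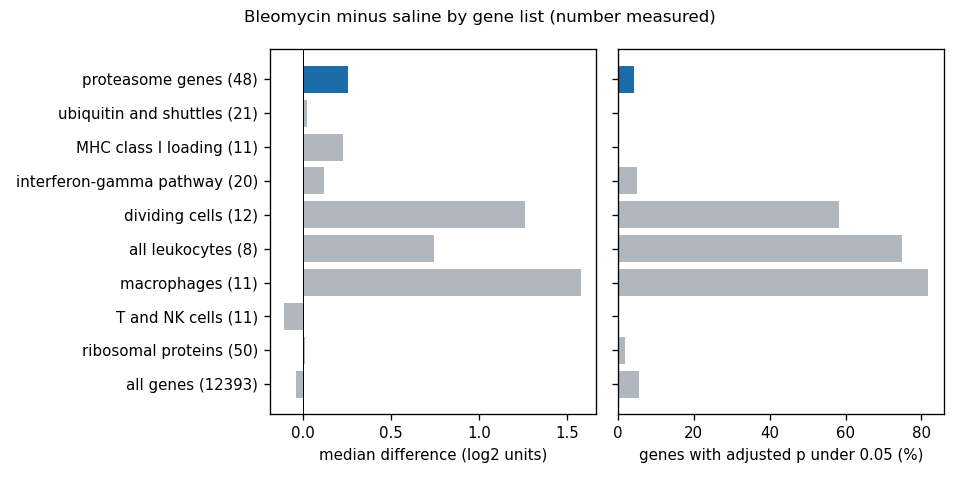
Median difference in log2 units (left) and percent of genes called (right) for the proteasome genes (blue), for lists of neighbouring pathways and cell markers, and for all genes (grey), with the number of genes measured. The proteasome genes have a median of 0.25 and 4.17% called, against -0.039 and 5.60% for all genes.

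The promoters of the genes were read from RefSeq sequences of build GRCm38.p6, from 250 bases before the start of transcription to 50 after it. A window was given for 40 of the 48 genes, with 43 windows in all. They were richer in CpG than promoters at large, with a median of 19 CpG dinucleotides and 59% G and C in 300 bases, against 7 and 52.7% over all 32851 windows. Letters known from the control of these genes were searched on both strands. GAAANNGAA, a core of the interferon-stimulated response element, was found for 7 of 40 genes (17.5%), against 9.76% of all genes. TTCNNNGAA, the gamma-activated site of STAT factors, was found for 3 (7.5%), against 9.55%. TGACNNNGC, the antioxidant response element core that Nfe2l1 and Nfe2l2 bind, was found for 6 (15%), against 14%. CCAAT was found for 15 (37.5%), against 41.1%. A match is a description of letters and not evidence of binding, and these patterns can overlap.

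The 250 bases before the start are shown for the genes that were called, Psmd8 and Psme3, and for Psmb5 and Psmb8, the constitutive and the interferon-inducible form of a catalytic subunit, which had similar differences and unlike letters. Capitals mark matches to the searched letters. Psmd8 lies at chr7:29180674-29180923 (minus strand), Psme3 at chr11:101315963-101316212 (plus strand), Psmb5 at chr14:54617996-54618245 (minus strand) and Psmb8 at chr17:34197945-34198194 (plus strand), and each is written 5′ to 3′ on the strand of the gene.
Psmd8: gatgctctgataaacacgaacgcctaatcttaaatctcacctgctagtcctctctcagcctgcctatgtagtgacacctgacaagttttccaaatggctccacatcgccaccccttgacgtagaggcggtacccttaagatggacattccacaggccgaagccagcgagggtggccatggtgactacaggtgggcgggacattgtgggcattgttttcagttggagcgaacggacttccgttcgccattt
Psme3: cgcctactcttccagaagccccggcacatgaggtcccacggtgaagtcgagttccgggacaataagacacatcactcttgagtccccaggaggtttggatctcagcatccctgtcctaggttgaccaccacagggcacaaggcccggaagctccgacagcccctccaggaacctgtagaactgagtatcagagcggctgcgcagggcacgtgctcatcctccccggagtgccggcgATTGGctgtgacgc
Psmb5: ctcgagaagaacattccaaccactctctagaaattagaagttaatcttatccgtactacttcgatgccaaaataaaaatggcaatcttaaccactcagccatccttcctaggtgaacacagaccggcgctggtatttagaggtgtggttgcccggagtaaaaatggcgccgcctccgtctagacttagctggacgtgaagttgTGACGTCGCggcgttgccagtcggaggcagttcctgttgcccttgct
Psmb8: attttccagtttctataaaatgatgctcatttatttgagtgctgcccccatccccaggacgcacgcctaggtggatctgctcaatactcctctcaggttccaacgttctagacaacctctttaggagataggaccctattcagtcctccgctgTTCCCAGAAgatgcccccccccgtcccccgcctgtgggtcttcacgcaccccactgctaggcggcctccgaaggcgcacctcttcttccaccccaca
The capitals are a CCAAT box, read on the other strand, in Psme3, the antioxidant response element core in Psmb5 and the gamma-activated site in Psmb8. None of the 4 patterns was found in the bases shown for Psmd8, the gene with the largest difference.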

How the data were processed

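RNA of 6 mouse lungs was measured on Affymetrix MOE430A arrays, 1 per mouse. The authors deposited log2 expression per probe set, computed by RMA with quantiles normalised, as the design text of the series and the submitters' processing notes state. Neither source gives a software version, a background method or a chip definition. That the logs are of base 2 was read from the largest value, 14.42, which is above the 11.1 that a 16-bit scanner can reach as a natural log. Scanner files and detection calls are not used here, so background and saturation were not examined.

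Of 22690 probe sets, 64 controls were left out. GEO's platform annotation gives 1 symbol for 20380 probe sets, several for 691 and none for 1555. The comparison of bleomycin with saline was fitted with limma 3.58.1 (lmFit, eBayes, no covariates) under R 4.3.3 on all 22626 probe sets, with Benjamini-Hochberg adjustment and a threshold of 0.05. The fit was tested on simulated data, where it missed most of the smaller changes. Few probe sets were changed there, which makes the adjustment stricter, so that rate of misses does not carry over to these data. Catalytic pairs were compared by an exact permutation test over 20 assignments. The alternatives tried were array weights, a trended robust prior, 2 filters on dim probe sets (25th percentile and median), quantile normalization again, centring on ribosomal protein genes, the mean of probe sets and leaving out each array. For the centring, all genes whose symbols start with Rpl or Rps were taken. The genes and lists were chosen with earlier results of these data known. Named genes were the called ones, the interferon-inducible and catalytic subunits, the extremes of each role, genes with discordant probe sets, and of each other list the called genes or the largest difference. Other genes named were chosen after their values were seen. Python 3.11.15 with matplotlib 3.10.9 drew the figures.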

Additional observations from a re-analysis of the deposited data

How the results depend on the processing

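The median differences of the 48 genes and of the interferon-inducible group stayed positive under all 13 alternatives. They were 0.20 to 0.33 and 0.10 to 0.39 over the 6 fits with 1 array left out. With quantile normalization again they were 0.18 and 0.16, against 0.25 and 0.23 in the main fit. The number of proteasome genes called was 2, against 1 with the trended robust prior, 4 with array weights, 1 with centring on ribosomal protein genes, and 0 to 1 with 1 array left out. A fit with fewer arrays calls fewer genes of any kind. Positive differences numbered 39 to 43 with 1 array left out. The number with all bleomycin arrays above all saline arrays, 20 (41.7%), was 12 (25%) with quantile normalization again and 20 to 33 (41.7% to 68.8%) with 1 array left out. Of all genes the share was 13.3%, 12.5% and 16.2% to 18.1%, respectively. The cause of these shifts was not tested. The change of Psmb8 against Psmb5 was -0.10 to 0.16 with 1 array left out, that of Psmb9 against Psmb6 -0.35 to -0.10 and that of Psmb10 against Psmb7 -0.64 to -0.32.

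Signs turned only for genes that were not called. Psmc1 was 0.11 with array weights. Psmf1 was -0.0050 with array weights, -0.031 with quantile normalization again, -0.028 with centring and -0.11 as the mean of its probe sets. As means of probe sets Psma1 was -0.0070 and Psmd7 -0.054. With 1 array left out the differences ran from -0.10 to 0.13 for Psmc1, -0.0056 to 0.13 for Psmc2, -0.24 to 0.080 for Psmd9, -0.0068 to 0.014 for Psmf1, -0.12 to 0.065 for Psmb10, -0.013 to 0.32 for Psmd4, -0.15 to 0.47 for Psmd7, -0.016 to 0.23 for Psmc3ip, -0.11 to 0.0080 for Psmd3 and -0.16 to 0.031 for Psmg2. No paired analysis was possible because the letters of the arrays are unique to each mouse.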
